A study of Mus musculus with 3 samples.

Results

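Nrp1, Izumo1r, Gpr83, Cd83, Ecm1 and Capg were examined in activated regulatory T cells (Treg), the Foxp3-dependent CD4 T cells that restrain immune responses. These 6 genes were taken as a list by name, out of 55536 genes measured and 22028 protein-coding genes. Polyadenylated RNA was sequenced in 3 libraries from a male mouse aged 4 months, whose strain is Foxp3CreERT2 x Rosa26YFP. Foxp3CreERT2 is an inducible Cre recombinase allele under Foxp3 control, and Rosa26YFP is a reporter of yellow fluorescence. The labels give the libraries as technical replicates 1, 2 and 3 of 1 biological replicate and trace the cells to bone marrow hematopoietic cells. All libraries therefore share strain, sex, age and alleles, and they form 1 group with no control. No gate, tamoxifen treatment or list of the steps repeated between libraries is given in the sources used here. SD and p-values below measure only the spread between these libraries, which may be technical.

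Of the 6 genes, 4 encode surface proteins, 1 a secreted protein and 1 a cytoplasmic protein. Neuropilin-1 is a co-receptor for class 3 semaphorins and for vascular endothelial growth factor, and it also binds Sema4a; it is widely used to mark Treg that arose in the thymus. Izumo1r encodes folate receptor 4, also called Juno, a lipid-anchored protein that is abundant on Treg and that binds the sperm protein Izumo1 on the egg. Gpr83 is a G-protein-coupled receptor enriched in Treg, and Cd83 is an immunoglobulin-family protein that keeps MHC class II and Cd86 on the cell surface. Ecm1 is a secreted glycoprotein. Capg is a member of the gelsolin family that caps the growing ends of actin filaments without cutting them.

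All 6 genes were well expressed, and Izumo1r stood highest. Levels are given as TPM, a transcript abundance corrected for transcript length and library size, which allows comparison between genes. Izumo1r was at 844, 999 and 449.6 TPM in replicates 1, 2 and 3, a mean of 764 ± 283 TPM (SD, n = 3) and rank 208 of all genes. Capg was at 585, 729 and 362 TPM, a mean of 559 ± 185 TPM (SD, n = 3) and rank 264. Izumo1r was above Capg within each library, although their ranges overlapped across libraries. Nrp1 was at 187, 207 and 105 TPM, a mean of 166 ± 54.1 TPM (SD, n = 3) and rank 868. Cd83 was at 197, 142 and 77.9 TPM, a mean of 139 ± 59.8 TPM (SD, n = 3) and rank 1042. Nrp1 and Cd83 did not differ beyond their spread, since Cd83 was the higher in replicate 1 and Nrp1 in replicates 2 and 3. Ecm1 was at 117, 122 and 75.0 TPM, a mean of 105 ± 25.7 TPM (SD, n = 3) and rank 1410, and its range overlapped that of Cd83. Gpr83 was the lowest, at 69.3, 71.2 and 53.3 TPM, a mean of 64.6 ± 9.85 TPM (SD, n = 3) and rank 2296. Its highest library lay below the lowest library of Ecm1. The median of log2(TPM + 1) was 7.18 over the 6 genes and 0.70 over all protein-coding genes.

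**Figure D1:**
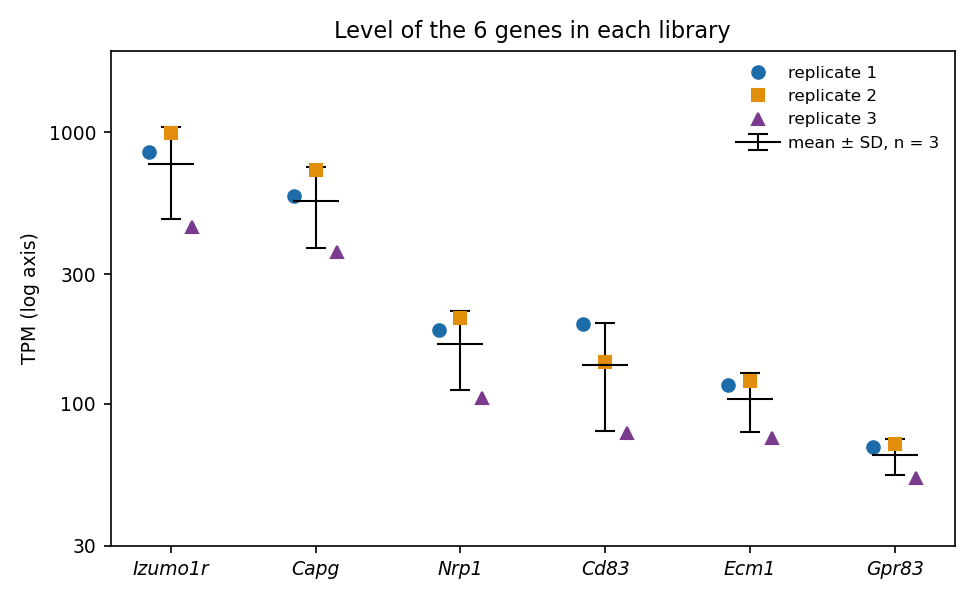
TPM on a log axis for each gene in replicates 1, 2 and 3 (points), with the mean and SD over the 3 libraries (bar and whiskers). Replicate 3 is the lowest point of every gene, and Izumo1r and Capg lie above the other 4 genes in each library.

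The order of the genes was the same in the second deposited quantification, at lower absolute levels. There the means were 479 TPM for Izumo1r, 315 TPM for Capg, 85.2 TPM for Nrp1, 68.1 TPM for Cd83, 62.0 TPM for Ecm1 and 33.7 TPM for Gpr83. Counts on the older gene models (release M4), scaled per coding base to the same total, gave 1284 TPM for Izumo1r, 827 TPM for Capg, 203 TPM for Nrp1, 209.7 TPM for Cd83, 142 TPM for Ecm1 and 128 TPM for Gpr83. Nrp1 and Cd83 changed places there.

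The cells carried the transcripts of regulatory T cells. All 7 Treg genes checked (Foxp3, Il2ra, Ikzf2, Ctla4, Tnfrsf18, Cd4 and Cd3e) reached 1 TPM in every library, Foxp3 at 36.0 ± 11.9 TPM (SD, n = 3). By CPM, 5 of the 7 were lowest in replicate 3, while Foxp3 (29.5, 28.7 and 49.8 TPM) and Ctla4 (190.2, 249.6 and 612 TPM) were highest there. Ctla4 was the one Treg gene that also differed with the trended dispersion, at an adjusted p of 0.000436. The libraries held 10981924, 9700630 and 6667391 fragments assigned to genes, and mitochondrial genes took 2.21% to 2.87% of them. Of the markers of other cells, those that reached 1 TPM in every library were 4 of 8 for B cells, 4 of 6 for plasma cells, 3 of 8 for myeloid cells, 4 of 10 for dendritic cells, 2 of 6 for erythroid cells and 0 of 8 for endothelial and stromal cells. Of all 22028 protein-coding genes, 9988 did so, which is the background for these counts and for those of the partner lists below. The dendritic cell gene Clec9a was at 0 in each library. Replicate 1 stood apart in erythroid genes, whose TPM summed to 798 there and to 5.30 and 23.4 in replicates 2 and 3. Replicate 3 had the highest sum of plasma cell markers, at 172 TPM against 108 and 69.95, with Jchain at 43.4, 4.70 and 69.6 TPM. It also had the highest rRNA share, 3.1% against 2.23% and 2.05%. The part of these differences in the values of the 6 genes was not tested.

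Between libraries, all 6 genes were lowest in replicate 3. Counts were scaled with TMM library sizes to CPM, the count relative to library size. Each gene's 3 counts were compared by a chi-square test (2 degrees of freedom), adjusted over the 12997 genes whose mean count reached 10. Under this test, which allows for sampling noise only, all 6 genes differed between libraries, against 65.4% of all genes tested. The genes tested include those of far lower count, and the test calls smaller differences at higher counts. The 6 genes had at least 566 expected counts in each library. Shares called by this test, here and below, were not matched for count. A lowest CPM in replicate 3 was found for 45.8% of genes tested. A CPM in replicate 3 under 0.8 of that in both other libraries was found for 6 of the 6 genes and for 24.7% of genes tested. Among the Treg genes checked, Ikzf2 (1305, 1318 and 922 CPM), Tnfrsf18 (548, 442 and 286), Cd4 (717, 874 and 475) and Cd3e (1288, 1337 and 853) met it too. Il2ra (682, 706 and 606 CPM) did not, and Foxp3 and Ctla4 were highest in replicate 3. The median log2 ratio of replicate 3 to the mean of the other libraries was -0.92 over the 6 genes and -0.08 over all genes tested. In bulk RNA, fewer cells of a type and less RNA per cell cannot be told apart.

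The same counts were also tested with the trended dispersion that edgeR estimates from these libraries. Under it 0 of the 6 genes differed at an adjusted p below 0.05, and 2 (Izumo1r and Cd83) did at an unadjusted p below 0.05. Of all genes tested, 1.18% differed. This share, and the 65.4% under the chi-square test, are also the background for the calls in the partner lists below. The libraries under test are also those that set this dispersion. With replicates 1 and 2 alone, 3 of the 6 genes differed beyond sampling noise (Izumo1r, Cd83 and Capg), against 31.9% of all genes tested.

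**Figure D2:**
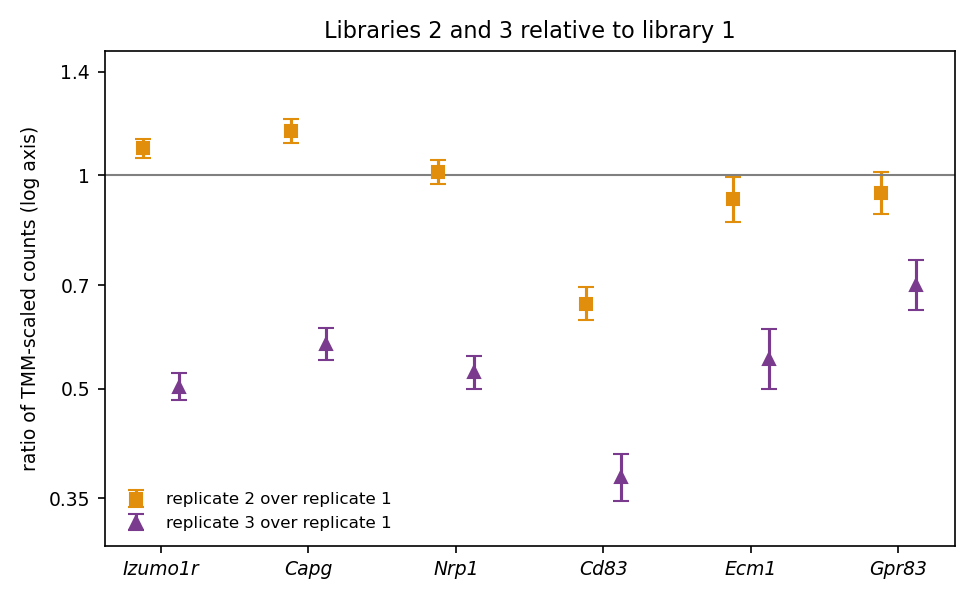
Ratio of TMM-scaled counts in replicate 2 (squares) and replicate 3 (triangles) to replicate 1, on a log axis, with exact 95% intervals for counting error. All 6 ratios of replicate 3 lie between 0.375 and 0.70, while those of replicate 2 lie near 1 except for Cd83, at 0.659.

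Nrp1, the semaphorin and growth factor co-receptor, lies on mm10 at chr8:128358604-128503363, on the plus strand, and a miRNA gene, Mir1903, lies within its span. Its expected counts were 5380, 4890 and 1835 in replicates 1, 2 and 3, and its scaled levels were 503, 509 and 265 CPM. Replicates 1 and 2 were level and replicate 3 was low. The highest library exceeded the lowest 1.92-fold (95% interval 1.82 to 2.02), with an adjusted p of 1.78e-144 in the chi-square test and 1.0 with the trended dispersion. Replicates 1 and 2 alone gave a ratio of replicate 2 to 1 of 1.01, with an adjusted chi-square p of 0.724.

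Soluble neuropilin-1 is known to arise from transcripts that run on into an intron and so lose the membrane-spanning part of the protein. The annotation used for the main tables holds 4 Nrp1 models. Nrp1-201, with 17 exons, is the single coding model. The other 3 share early exons with it, run on into an intron, end there, and are annotated as retained-intron transcripts with no coding sequence. Nrp1-203 ends in the intron after exon 2, having passed 9.0% of the 2769 coding bases of Nrp1-201. Nrp1-202 ends in the intron after exon 4, at 23.8% of the coding bases, and Nrp1-204 in the intron after exon 8, at 46.3%. No model ends in any of the introns between exon 9 and the last exon, so a transcript ending there had no model of its own to be counted under. The 3 run-on models carry no annotated coding sequence, so their shares do not measure soluble neuropilin-1. The exon ends at which the models part are printed below because reads across them, or further into the intron, tell a run-on from a spliced transcript. Some models also differ in where they start. Lower case is exon, capitals are the first intron bases of the run-on model, and each is followed by the spliced form in Nrp1-201. The first intron base lies at chr8:128363394 for Nrp1-203, chr8:128425970 for Nrp1-202 and chr8:128460757 for Nrp1-204.
Nrp1-203 after exon 2: ggacagagactgcaaGTAAGTGAGGGAGTT
Nrp1-201 exons 2 and 3: ggacagagactgcaagtatgactacgtgga
Nrp1-202 after exon 4: atggattccctgaagGTAACATCTAAGAGC
Nrp1-201 exons 4 and 5: atggattccctgaagttggccctcacattg
Nrp1-204 after exon 8: gctgcaagataacagGTAAGTGCCAGAATG
Nrp1-201 exons 8 and 9: gctgcaagataacagattatccttgctctg

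The coding model held most of the Nrp1 signal, and its share hardly moved between libraries. Nrp1-201 took 72.6%, 70.3% and 70.3% of the gene's TPM in replicates 1, 2 and 3, a mean of 71.1% ± 1.3 (SD, n = 3). Nrp1-203, the shortest in coding terms, took 19.6%, 21.9% and 21.3%. Nrp1-204 took 6.42%, 6.63% and 6.35%, and Nrp1-202 took 1.4%, 1.19% and 1.99%. The 3 retained-intron models thus summed to 27.4%, 29.7% and 29.7%. In the second quantification Nrp1-201 took 75.0%, 71.6% and 71.8%, a mean of 72.8% ± 1.88 (SD, n = 3). In TPM, Nrp1-201 stood at 135, 146 and 73.8 and Nrp1-203 at 36.6, 45.3 and 22.4, so both were lowest in replicate 3. Shares are estimates by the quantification program and were given no test, and incompletely spliced RNA and a finished short transcript cannot be told apart in them.

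**Figure D3:**
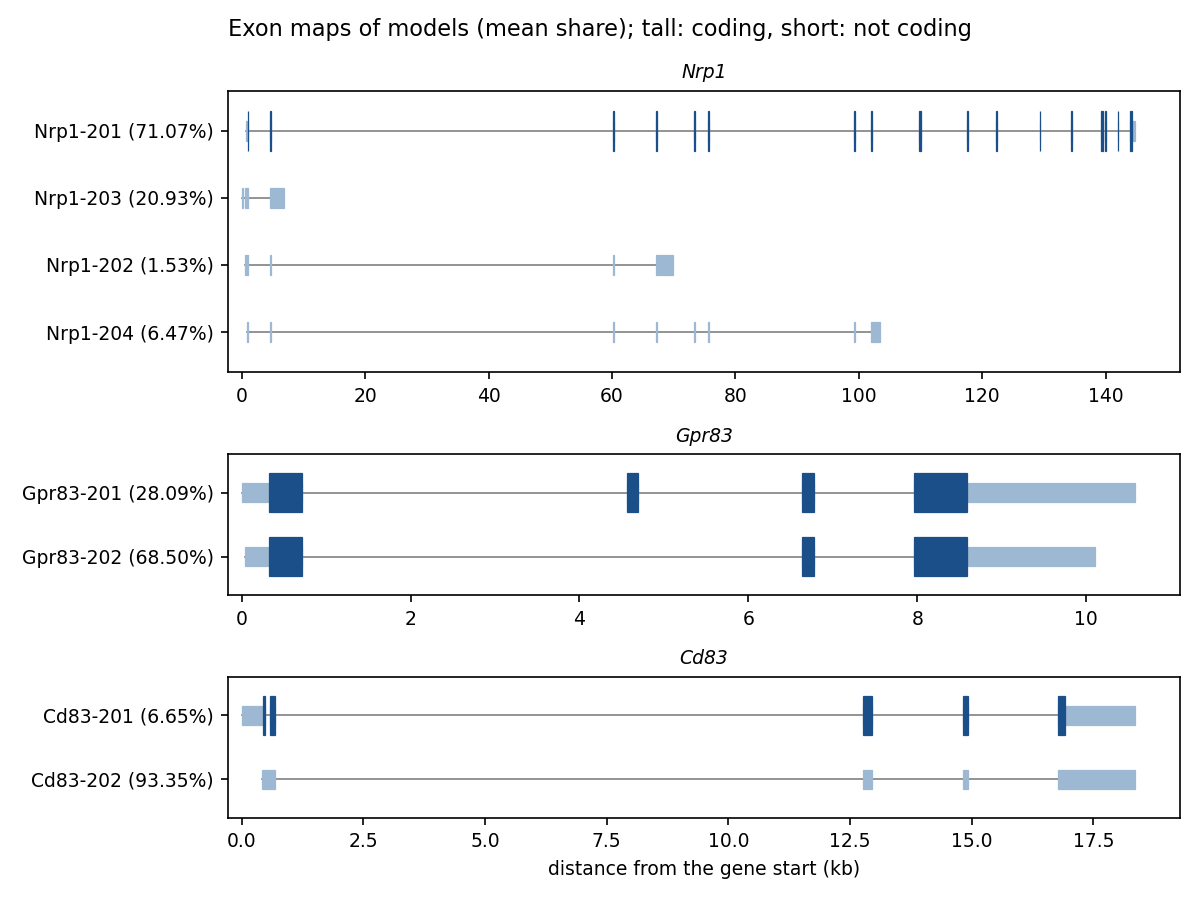
Exons of models of Nrp1, Gpr83 and Cd83, drawn to scale against the distance from the gene start in kb, with the mean share of the gene's TPM in brackets (tall blocks coding, short blocks not coding, thin lines introns). The 3 Nrp1 models without coding blocks stop before the end of the gene, each in a block that runs into an intron, Gpr83-202 lacks the second exon of Gpr83-201, and Cd83-202 carries no coding block.

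Of 27 genes for neuropilin partners and signalling, 12 reached 1 TPM in every library, and 8 of the 15 that could be tested differed between libraries by the chi-square test (0 with the trended dispersion). The highest were Sema4d, a semaphorin of lymphocytes, at 143 ± 22.3 TPM (SD, n = 3), Sema4a, a ligand of Nrp1, at 37.0 ± 8.13 TPM (SD, n = 3), and the TGF-beta receptor Tgfbr1 at 27.1 ± 8.44 TPM (SD, n = 3). Nrp1 was above each of them on average, but Sema4d was above it in replicate 3, at 157 TPM. Its paralog Nrp2 had 6, 3 and 6 counts, and of the plexins that pair with neuropilins, Plxna1 was at 0.863 ± 0.076 TPM and Plxna3 at 2.97 ± 0.858 TPM (SD, n = 3). Plxnd1, another such plexin, was at 8.35, 10.3 and 21.2 TPM, highest in replicate 3, with an adjusted chi-square p of 9.65e-14 (0.979 with the trended dispersion). The ligand genes Vegfa and Sema3b had 0 counts in each library, which allows up to 3 counts per library, or 0.281, 0.312 and 0.434 CPM. Sema3a had 0, 2 and 2 counts, and the VEGF receptor Kdr 0, 3 and 2. Tgfb1, whose product Nrp1 can bind, was at 5.91 ± 2.13 TPM (SD, n = 3).

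Izumo1r, the folate receptor 4 gene, lies at chr9:14885814-14903949 on the minus strand. Its expected counts were 8003, 7858 and 2606, and its scaled levels were 749, 818 and 377 CPM. Replicate 2 was highest and replicate 3 lowest, a 2.17-fold difference (95% interval 2.07 to 2.27), with an adjusted chi-square p of 5.73e-276 (0.916 with the trended dispersion). Replicates 1 and 2 also differed, by a ratio of 1.09 and an adjusted chi-square p of 4.31e-07.

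Every one of the 5 Izumo1r models is annotated as coding, and they differ in their exons and ends. The main contrast is the last exon, which in Izumo1r-202 lies downstream of the last exon of Izumo1r-201, with 13678 bases between them. The junctions are shown with the last 15 bases of the shared exon in lower case and the first 15 of the last exon in capitals. Izumo1r-201 starts that exon at chr9:14900624 and Izumo1r-202 at chr9:14886344, reading on the minus strand.
Izumo1r-201: gggactggagtgaggAGAAGAAACACTGCC
Izumo1r-202: gggactggagtgaggTCAAGGGTCTTCTAT

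Izumo1r-201, with 266 coding bases in its last exon, took 87.4%, 86.9% and 81.1% of the gene's TPM. Izumo1r-202, with 50 coding bases in its last exon, took 4.37%, 5.83% and 11.1%. The share of Izumo1r-202 was thus highest in replicate 3, in the second quantification too, at 4.25%, 5.45% and 10.7%. In TPM, Izumo1r-201 was at 738, 868 and 365, while Izumo1r-202 was at 36.9, 58.3 and 49.9. The low level in replicate 3 was seen in the first model and not in the second. Izumo1r-204 and Izumo1r-205 took means of 4.12% and 2.69%, and 6.15% and 7.57% in the second quantification.

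Among the 8 other genes for folate receptors, carriers and enzymes, 4 reached 1 TPM in every library, and 3 of the 4 tested differed between libraries by the chi-square test (0 with the trended dispersion). The highest were Slc19a1, the reduced folate carrier, at 33.6 ± 8.84 TPM and the mitochondrial folate carrier Slc25a32 at 11.4 ± 2.10 TPM (each SD, n = 3). The other folate receptors were near or at 0, with Folr1 at 0 counts in each library and Folr2 at 0.68, 0 and 0 expected counts. Izumo1, whose product binds the Izumo1r product, had 2, 1 and 0 counts.

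Gpr83, the G-protein-coupled receptor, lies at chr9:14860210-14870789 on the plus strand. It is the neighbour of Izumo1r: the ends of the genes face each other across 15024 bases that hold 0 other annotated genes. Its expected counts were 1870, 1588 and 847, and its scaled levels were 175, 165 and 122.5 CPM. Its spread was the smallest of the 6 genes, at 1.43-fold (95% interval 1.32 to 1.55), with an adjusted chi-square p of 1.17e-16 (1.0 with the trended dispersion). Without replicate 3, there was a ratio of 0.944 and an adjusted chi-square p of 0.198.

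Gpr83 has a pair of coding models of high share, which differ by a 126-base exon, chr9:14864772-14864897, that holds 42 codons in frame. Gpr83-201 carries it and has 1269 coding bases, and Gpr83-202 skips it and has 1143. The exon is shown in capitals between the last bases of exon 1 and the first of the next exon, followed by the junction without it.
Gpr83-201: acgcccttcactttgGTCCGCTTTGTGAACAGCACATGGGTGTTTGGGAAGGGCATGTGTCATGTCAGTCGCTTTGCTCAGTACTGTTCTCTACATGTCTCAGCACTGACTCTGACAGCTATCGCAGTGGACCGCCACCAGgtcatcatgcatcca
Gpr83-202: acgcccttcactttggtcatcatgcatcca

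The model without the exon held the larger share in each library. Gpr83-202 took 63.9%, 62.4% and 79.3% of the gene's TPM, and Gpr83-201 took 33.0%, 33.9% and 17.3%. The second quantification gave 61.2%, 61.7% and 76.2% for Gpr83-202. In TPM, Gpr83-202 was nearly level at 44.3, 44.4 and 42.2, whereas Gpr83-201 was at 22.9, 24.2 and 9.23. Most of the lower Gpr83 TPM of replicate 3 was therefore assigned to the model with the exon. These models also end 479 bases apart, so the share does not rest on the exon alone.

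Among the 8 genes for Gpr83 ligand and relatives, 4 reached 1 TPM in every library, and 3 of the 4 tested differed between libraries by the chi-square test (0 with the trended dispersion). These 4 were other G-protein-coupled receptors of lymphocytes. Gpr183, the oxysterol receptor, was at 75.2 ± 8.82 TPM, Gpr18 at 63.8 ± 1.93 TPM and the acid-sensing receptor Gpr65 at 34.7 ± 2.99 TPM (each SD, n = 3). Gpr83 thus stood with Gpr18 and Gpr183 and did not differ from Gpr18 beyond its spread. Pcsk1n, which encodes the precursor of a Gpr83 peptide ligand, and Npy2r had 0 counts in each library.

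Cd83, which holds MHC class II and Cd86 at the surface, lies at chr13:43784775-43803132 on the plus strand. Its expected counts were 3528, 2090 and 855, and its scaled levels were 330.1, 217 and 124 CPM. It had the widest spread of the 6 genes and differed from the others in that replicate 2 also lay well below replicate 1. The highest library exceeded the lowest 2.67-fold (95% interval 2.48 to 2.88), with an adjusted chi-square p of 1.41e-167 (0.33 with the trended dispersion). Replicates 1 and 2 alone gave a ratio of 0.659 and an adjusted chi-square p of 3.63e-50. Cd83 is also made by B cells and dendritic cells. The 8 B cell markers summed to 111, 72.4 and 89.8 TPM and the 10 dendritic cell markers to 126, 122.5 and 72.9 TPM in replicates 1, 2 and 3, and their part in the Cd83 values was not tested. Most of the B cell sum came from Cd79b (60.79, 50.85 and 55.6 TPM). By CPM, 2 of the 8 B cell markers were lowest in replicate 3 and the others in replicate 2. Those 2 were Ms4a1 (13.0, 4.81 and 4.16 TPM) and Fcer2a (3.97, 3.65 and 0.44 TPM). Most of the dendritic cell sum came from Bst2 (88.7, 79.6 and 39.1 TPM) and Ccr9 (28.6, 34.1 and 17.8 TPM), which other cells also express. Zbtb46, Flt3, Itgax, Siglech, Tcf4 and Clec10a were each highest in replicate 3 by TPM. Xcr1 was lowest there, with 19, 32 and 8 counts. Flt3 (3, 1 and 7 counts), Itgax (0, 0 and 4.77), Siglech (0, 1 and 1) and Clec10a (1, 0 and 2) rested on few counts. Tcf4 and Xcr1 differed by the chi-square test (adjusted p of 0.00917 and 0.0122), and Zbtb46 did not (0.826). With the trended dispersion none of them differed.

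Most of the Cd83 signal was assigned to a model with no coding sequence. Cd83-201 is the single coding model, and Cd83-202 is annotated as a retained-intron transcript that keeps the 95-base intron after the first exon, chr13:43785251-43785345. Cd83-202 also starts 410 bases further into the gene. The kept intron is shown in capitals within Cd83-202, followed by the spliced junction of Cd83-201.
Cd83-202: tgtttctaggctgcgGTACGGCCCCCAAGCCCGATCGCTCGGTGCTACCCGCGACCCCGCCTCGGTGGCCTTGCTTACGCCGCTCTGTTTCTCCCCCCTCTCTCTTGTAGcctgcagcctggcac
Cd83-201: tgtttctaggctgcgcctgcagcctggcac

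Cd83-202 took 94.6%, 95.4% and 90.1% of the gene's TPM, and 88.9%, 87.8% and 82.4% in the second quantification. Cd83-201 took 5.42%, 4.65% and 9.89%, and 11.1%, 12.2% and 17.6% in the second quantification. In TPM, Cd83-202 was at 187, 136 and 70.2, and Cd83-201 at 10.7, 6.61 and 7.70. The coding model alone, at 8.34 ± 2.12 TPM (SD, n = 3), would be the lowest of the coding totals of the 6 genes, below the 62.4 TPM of Gpr83. Because the models differ both in the intron and in 410 bases at the start, the share does not tell which of these features set it. The M4 counts of Cd83 were 1894, 1179 and 478, lower than the main expected counts, while those of Izumo1r (14903, 14165 and 5015) and the other 4 genes were higher.

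**Figure D4:**
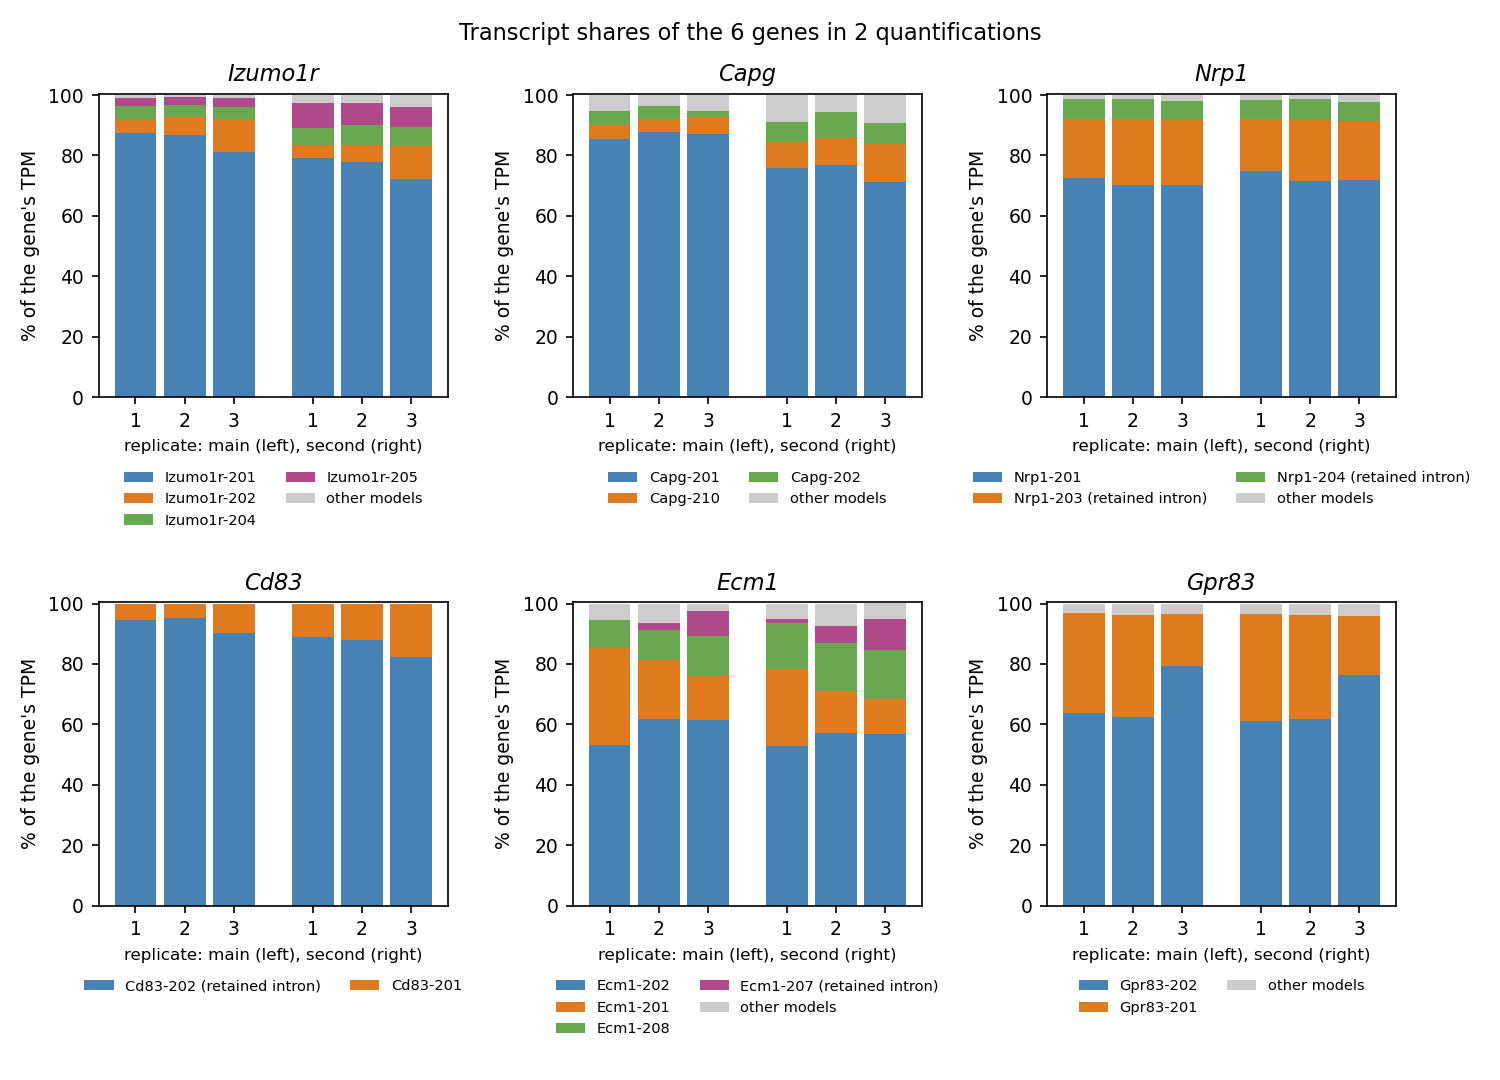
Percent of each gene's TPM assigned to each model (stacked bars, from 0) in replicates 1, 2 and 3 of the main (left) and second (right) quantification. Cd83 is mostly the retained-intron model Cd83-202 in both, less so in the second, and the share of Gpr83-202 is highest in replicate 3 in both.

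Of 9 genes for MHC class II and its turnover, 7 reached 1 TPM in every library and 7 of the 8 tested differed between libraries by the chi-square test (0 with the trended dispersion). The invariant chain gene Cd74 was highest at 594 ± 98.7 TPM, followed by H2-Aa at 51.9 ± 17.8 TPM and H2-Eb1 at 51.0 ± 20.0 TPM (each SD, n = 3). These genes were lowest in replicate 2, not in replicate 3. Cd86, the co-stimulatory protein that Cd83 protects, was at 37.2, 31.6 and 17.0 TPM and, by CPM, was the one tested gene of the list lowest in replicate 3. The ubiquitin ligase gene March1, against whose product Cd83 acts, was at 1.07 ± 0.468 TPM (SD, n = 3). March8 was lowest in the list, at 0.287 ± 0.117 TPM (SD, n = 3).

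Ecm1, the secreted glycoprotein gene, lies at chr3:95734147-95739569 on the minus strand, and the miRNA gene Mir7014 overlaps it. Its expected counts were 1589, 1322 and 566, and its scaled levels were 149, 138 and 81.9 CPM. The highest library exceeded the lowest 1.82-fold (95% interval 1.65 to 2.0), with an adjusted chi-square p of 9.99e-34 (1.0 with the trended dispersion). Without replicate 3, the libraries gave a ratio of 0.925 and an adjusted chi-square p of 0.0968.

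The main Ecm1 models, Ecm1-201 and Ecm1-202, both have 11 exons. Within the coding sequence they differ by 3 bases at the start of exon 6. These bases, chr3:95737055-95737057, are in capitals in Ecm1-202, and Ecm1-201 splices past them. The coding sequence runs on through them, with 1677 bases in Ecm1-202 and 1674 in Ecm1-201. The 3 bases keep the reading frame. Read as a codon TAG would be a stop, so they are split between neighbouring codons.
Ecm1-202: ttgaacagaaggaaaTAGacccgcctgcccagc
Ecm1-201: ttgaacagaaggaaaacccgcctgcccagc

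Ecm1-202, with the extra bases, took the larger share, at 53.3%, 61.8% and 61.5%. Ecm1-201 took 32.03%, 19.5% and 14.6%, and 25.3%, 13.8% and 11.5% in the second quantification, highest in replicate 1 in both. Ecm1-201 is 1894 bases long and Ecm1-202 is 1900. They thus differ outside the extra bases too, and the shares do not rest on those bases alone. The short coding model Ecm1-208 took 9.21%, 9.74% and 13.3%, and the retained-intron model Ecm1-207 took 0%, 2.36% and 8.14%. Ecm1-207 rested on 0, 7.34 and 11.7 expected counts and Ecm1-208 on 18.27, 17.12 and 10.95. In the second quantification Ecm1-208 took 15.27%, 15.68% and 16.12%, above Ecm1-201 in replicates 2 and 3.

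Of 7 genes linked to Ecm1, 3 reached 1 TPM in every library and 4 of the 4 tested differed between libraries by the chi-square test (0 with the trended dispersion). Il2rb, the interleukin-2 receptor chain that Ecm1 binds in T cells, was at 459, 578 and 502 TPM. S1pr1, the receptor that lets lymphocytes leave lymphoid organs, was at 171 ± 21.6 TPM, and its activator Klf2 at 22.9 ± 4.50 TPM (each SD, n = 3). S1pr1 alone of these was lowest in replicate 3. Mmp9, a protease whose product Ecm1 binds, had 14, 62 and 12 counts, and the matrix gene Hspg2 had 0 counts in each library. The integrin gene Itgb6 was next lowest, with 6, 4 and 2 counts.

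Capg, the actin-capping protein gene, lies at chr6:72544391-72562983 on the plus strand. Its expected counts were 5290, 5494 and 1977, and its scaled levels were 495, 572 and 286 CPM. Replicate 2 was highest and replicate 3 lowest, a 2.0-fold difference (95% interval 1.9 to 2.11), with an adjusted chi-square p of 3.28e-156 (1.0 with the trended dispersion). Between replicates 1 and 2 there was a ratio of 1.16 and an adjusted chi-square p of 1.93e-12. Capg-201 took 85.5%, 87.8% and 87.1% of the gene's TPM. Capg-202, which starts 4882 bases further downstream and has the same 1047 coding bases, took 4.66%, 4.40% and 1.93%, and the short model Capg-210 took 4.57%, 4.17% and 5.67%. In the second quantification Capg-201 took less, at 75.7%, 76.99% and 71.3%. There Capg-202 took 6.71%, 8.69% and 7.24% and Capg-210 took 8.68%, 8.76% and 12.39%. The share of Capg-202 was thus lowest in replicate 3 in the main quantification only.

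Capg was far above the other genes of the gelsolin family. Of these 7 genes, 4 reached 1 TPM in every library, and 2 of the 5 tested differed between libraries by the chi-square test (0 with the trended dispersion). The highest were Flii at 73.7 ± 8.40 TPM, supervillin (Svil) at 22.3 ± 1.48 TPM and gelsolin itself (Gsn), which both cuts and caps filaments, at 22.1 ± 2.21 TPM (each SD, n = 3). Villin (Vil1) had 1, 5 and 3 counts and advillin (Avil) 0, 1 and 1. By CPM, Flii and Svil, which passed the test, were lowest in replicate 3, whereas by TPM both were lowest in replicate 1 (Flii at 66.5, 82.9 and 71.6 TPM).

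The heterodimeric capping protein, which caps the same filament ends, was at levels near that of Capg. Of its 9 subunit and regulator genes, 7 reached 1 TPM in every library, and 7 of the 7 tested differed between libraries by the chi-square test (0 with the trended dispersion). The beta subunit Capzb was at 531 ± 50.8 TPM, the alpha subunit Capza1 at 448 ± 80.8 TPM and the other alpha subunit Capza2 at 260.4 ± 12.2 TPM (each SD, n = 3). Capg was above Capzb in replicates 1 and 2 and below it in replicate 3, at 362 against 497 TPM. Capza3, the testis form, had 0 counts in each library, and Carmil1 was next lowest, with 8, 8 and 3 counts.

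**Figure D5:**
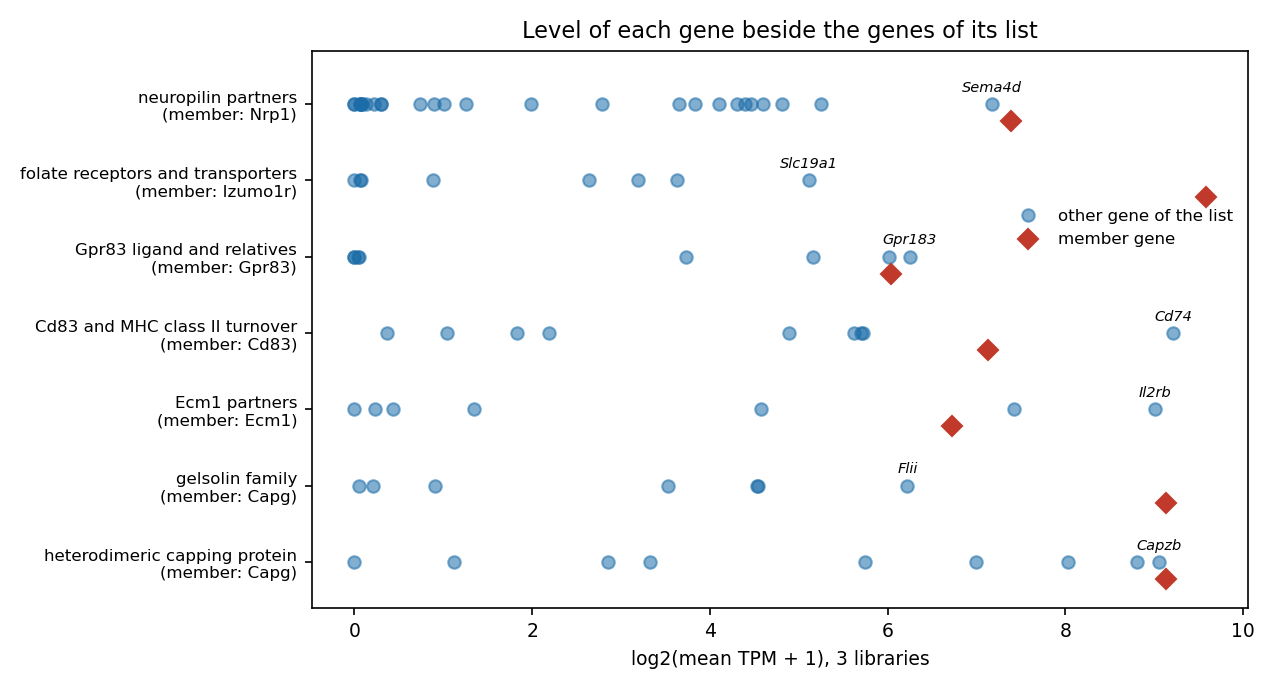
Log2(mean TPM + 1) over the 3 libraries of each gene in 7 lists (circles, the highest named) and of the gene the list belongs to (diamonds). Izumo1r and Capg lie well to the right of the folate and gelsolin lists, and Capg lies beside Capzb in the capping protein list.

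The 6 genes were next compared by the shape of their 3 scaled levels. The measure was the distance between log2 CPM values centred on each gene's own mean, so 0 is the same shape. It rests on 3 points per gene, of which only 2 are free, so close matches are easily found and no correlation is given. Nrp1 and Izumo1r were the closest pair, at 0.127, followed by Nrp1 and Ecm1 at 0.137 and Nrp1 and Capg at 0.139. Cd83 and Gpr83 were the farthest apart, at 0.64, and Cd83 was at 0.429 or more from each other gene. The neighbours Gpr83 and Izumo1r were at 0.497.

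Over 7006 protein-coding genes with a mean TPM of at least 10, the genes with a shape most like Nrp1 were Plcb2, a phospholipase C, the actin-binding calponin Cnn2 and Gprasp1, at distances of 0.0125 to 0.017. Cnn2 was at 1176, 1207 and 622 CPM. The nearest to Izumo1r were Sec14l1, Ankrd27 and Trim32, a ubiquitin ligase gene, at 0.0076 to 0.0208. Nsg2, Cspp1 and Faap20 were nearest to Gpr83, at 0.0038 to 0.01. The nearest to Cd83 were Hmgcs1, an early enzyme of cholesterol synthesis, Ap1s2 and Fam162a, at 0.0264 to 0.0813, and Hmgcs1 was at 116, 74.2 and 42.7 CPM. Tnfrsf22, Slc9a9 and Stambpl1 were nearest to Ecm1, at 0.0007 to 0.0059. The nearest to Capg were Traf2, a signalling adaptor of TNF receptors, Usb1 and Cenpt, at 0.0128 to 0.0167. The median distance over all genes compared ran from 0.40 for Gpr83 to 0.96 for Cd83.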

How the data were processed

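PolyA-selected RNA-seq libraries of 1 group were analysed. Per the file headers, the authors deposited expected counts, TPM and the percent of each gene's TPM per transcript (release M21 models, mm10 per the labels), computed from transcriptome alignments. A second deposited transcript table holds estimated counts and TPM, and a deposited M4 gene table holds whole-number counts. The sources used here do not name the programs. Groups and replicate numbers came from the labels. The entries that are not genes (0.113%, 0.166% and 0.087% of counts) were left out. Symbols came from the second transcript table.

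Expected counts were rounded. Library sizes were TMM-scaled with edgeR 4.0.16 (R 4.3.3), and genes whose mean count reached 10 were tested by chi-square against sampling noise, with Benjamini-Hochberg adjustment at 0.05. Tested on simulated data, it made more false calls than its threshold allows, at a higher rate among genes with high counts, as these genes have. Ratios have exact (Clopper-Pearson) 95% binomial intervals, which cover counting error only, as do floors of 3 counts, since reads that carry no molecular identifier are not independent. Alternatives were total scaling, DESeq2 1.42.0 size factors, other filters, the trended dispersion, the second quantification, M4 counts and leaving out each library. M4 counts per coding base rest on the inference that they count coding sequence.

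Named were all 6 genes, transcripts with a share of at least 5% in any library in either quantification, the highest 3 and lowest 2 genes of each partner list with genes that bind a listed gene, and the 3 genes nearest to each. Other partner genes named were chosen after their values were seen. Fam237a was not matched by symbol. One gene that this rule names is not reported here. The members and lists were chosen with earlier results of these data known. Sequences and coordinates are from the GENCODE M21 transcripts and annotation (GRCm38, that is mm10). Proteins are not shown.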

Additional observations from a re-analysis of the deposited data

How the results depend on the processing

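The count of genes differing between libraries was 6 of 6 under total scaling, DESeq2 size factors, both looser filters, the second quantification and the M4 counts. With the trended dispersion it was 0 of 6, and 153 of all genes against 8496. Leaving out 1 library gave 3 to 6 of the 6 genes and 4186 to 6953 of all genes; the lowest values were without replicate 3, where Nrp1, Gpr83 and Ecm1 lost their calls. The median level of the 6 genes was 153 TPM and moved to 78.3 TPM in the second quantification, the cause of which was not tested. It ranged from 133 to 183 TPM with 1 library left out. The mean share of Nrp1-201 moved from 71.1% to 72.8% in the second quantification. The median fold between the highest and lowest library was 1.96, and 1.87 to 2.04 under the alternatives. No paired analysis was possible because the libraries form 1 group. Depth limits short models such as Ecm1-207, which rested on a few counts.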
